A study of Mus musculus with 96 samples.

Results

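The regions described here are the H3K27me3 peaks of sorted NeuN- hippocampal nuclei that lie outside promoters. They were taken from the consensus peaks of that antibody and fraction by their deposited annotation, which had to start with anything but promoter, and the 3 peaks of a window on chromosome 2 were left out (chr2:98662501-98667360). This gave 885 of 1698 peaks, beside 810 promoter peaks and 3 peaks in the chromosome 2 window, out of 22815 peaks in the 6 tables of the series. The mice were C57BL/6N males aged 6 months and were wild type (WT), lacked Mutyh (Mutyh-/-) or Ogg1 (Ogg1-/-), or lacked both (DKO, Mutyh-/-xOgg1-/-). Mutyh and Ogg1 are DNA glycosylases that act in the repair of oxidised guanine, and the knockout alleles are not limited to the sorted cells. Each of the 12 libraries, 3 per genotype, came from hippocampi of 5 animals of a genotype that were pooled, and nuclei were separated by flow cytometry on NeuN, the neuronal protein encoded by Rbfox3. The NeuN- nuclei are mostly glia but hold every cell type that lacks NeuN, so fewer cells of a type and less mark per cell cannot be told apart. The comparisons asked whether the loss of either glycosylase, or of both, changed H3K27me3 in these nuclei.

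H3K27me3 is histone H3 trimethylated at lysine 27. It is written by Polycomb repressive complex 2 (PRC2), whose subunits include the methyltransferase Ezh2 and Suz12, and it marks genes that are kept silent in a lineage. The mark is usually strongest at CpG-rich promoters of developmental regulators and can spread from there over introns and intergenic DNA as broad domains. Peaks outside promoters therefore lie in gene bodies and between genes, where sequence is poorer in CpG and richer in repeats.

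Sequences are given for the peaks on which the description turns, a stretch about the centre of each peak on the plus strand of GRCm38, with every CG dinucleotide in capitals. The first 5 are the 4 strongest peaks with under 50% of soft-masked (repeat) bases and the strongest repeat peak, shown because CG-poor and CG-rich sequence both occur among them.
Pak3 chrX:143482958-143483158: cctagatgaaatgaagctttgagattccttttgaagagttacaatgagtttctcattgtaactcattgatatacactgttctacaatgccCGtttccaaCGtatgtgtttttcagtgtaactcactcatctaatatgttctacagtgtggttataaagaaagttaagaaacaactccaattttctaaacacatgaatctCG
Axin2 chr11:109011863-109012063: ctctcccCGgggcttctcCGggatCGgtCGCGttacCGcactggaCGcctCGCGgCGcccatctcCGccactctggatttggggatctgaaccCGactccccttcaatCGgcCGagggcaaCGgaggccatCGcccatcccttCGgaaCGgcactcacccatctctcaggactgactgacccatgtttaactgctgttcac
Ly6c2 chr15:75086692-75086892: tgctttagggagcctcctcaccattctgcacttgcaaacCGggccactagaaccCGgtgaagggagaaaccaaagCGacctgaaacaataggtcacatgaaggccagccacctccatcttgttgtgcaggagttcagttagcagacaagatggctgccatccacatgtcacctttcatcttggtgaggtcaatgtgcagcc
Pex2 chr3:5860592-5860792: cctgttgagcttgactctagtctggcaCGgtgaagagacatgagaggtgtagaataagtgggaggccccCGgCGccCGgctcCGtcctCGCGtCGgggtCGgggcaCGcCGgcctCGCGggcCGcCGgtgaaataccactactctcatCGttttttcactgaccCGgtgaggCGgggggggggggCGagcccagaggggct
4933422A05Rik chr9:35305356-35305556: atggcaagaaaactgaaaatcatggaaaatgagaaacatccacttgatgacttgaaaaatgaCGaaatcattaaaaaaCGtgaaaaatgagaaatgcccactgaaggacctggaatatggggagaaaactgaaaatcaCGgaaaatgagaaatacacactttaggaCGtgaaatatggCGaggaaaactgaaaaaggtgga
The next 3 are the strongest peaks of the 3 runs of neighbouring non-promoter peaks with most peaks, shown because these runs are described further on.
Prdm16 chr4:154393312-154393512: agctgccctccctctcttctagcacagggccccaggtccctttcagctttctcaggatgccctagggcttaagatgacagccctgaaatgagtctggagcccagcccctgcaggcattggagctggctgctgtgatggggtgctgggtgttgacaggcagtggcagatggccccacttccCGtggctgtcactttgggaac
Casz1 chr4:148724521-148724721: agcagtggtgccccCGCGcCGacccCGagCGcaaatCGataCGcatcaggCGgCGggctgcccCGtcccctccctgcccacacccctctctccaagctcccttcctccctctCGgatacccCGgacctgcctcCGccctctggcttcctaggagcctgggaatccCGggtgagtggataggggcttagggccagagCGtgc
Fendrr chr8:120937529-120937729: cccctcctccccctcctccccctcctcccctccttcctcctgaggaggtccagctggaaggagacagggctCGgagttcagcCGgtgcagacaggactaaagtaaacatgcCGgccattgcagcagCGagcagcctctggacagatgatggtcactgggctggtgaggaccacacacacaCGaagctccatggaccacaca
The last 3 are the differential regions with the smallest p in Mutyh-/-, Ogg1-/- and DKO, shown because the knockout results start with them.
Egr3 chr14:70045894-70046094: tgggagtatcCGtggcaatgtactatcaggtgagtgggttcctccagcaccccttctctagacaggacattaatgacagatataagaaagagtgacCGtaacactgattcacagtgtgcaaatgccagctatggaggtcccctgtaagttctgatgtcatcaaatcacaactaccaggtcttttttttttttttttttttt
Calcoco1 chr15:102806536-102806736: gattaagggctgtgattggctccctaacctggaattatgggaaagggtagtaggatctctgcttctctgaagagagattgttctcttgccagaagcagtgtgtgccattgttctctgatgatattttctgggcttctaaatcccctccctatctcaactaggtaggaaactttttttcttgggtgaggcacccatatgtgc
Tmem125 chr4:118548232-118548432: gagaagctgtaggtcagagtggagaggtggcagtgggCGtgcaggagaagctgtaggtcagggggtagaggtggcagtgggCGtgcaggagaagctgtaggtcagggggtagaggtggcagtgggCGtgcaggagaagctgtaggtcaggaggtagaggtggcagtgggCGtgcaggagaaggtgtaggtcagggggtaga
These stretches held 18 CG in Axin2 and 19 in Pex2, against 3 in Pak3 and 5 in 4933422A05Rik. The Prdm16 stretch held 1, the Casz1 stretch 15 and the Calcoco1 stretch 0, and the Tmem125 stretch repeats a short unit in tandem.

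Most of the 885 peaks lay far from a start site. Distal intergenic peaks numbered 453 (51.2%), intronic peaks 308 (34.8%), exonic peaks 85 (9.6%) and 3′ UTR peaks 35 (3.95%), with 2 in 5′ UTRs and 2 downstream of a gene. Their median distance to the closest start site was 23.9 kb, and they were assigned to 572 genes. A gene named for a peak below is this assignment and does not place the peak in or at that gene. The median CpG observed/expected ratio was 0.235, against 0.546 in the promoter peaks of the same libraries. Of the 4 larger classes, exonic peaks came closest to promoters with a median ratio of 0.451, whereas intergenic and intronic peaks had 0.214 and 0.218. At a GC content of at least 55% and a ratio of at least 0.6, 58 of the 885 peaks (6.55%) were CpG-rich, against 314 of 810 promoter peaks (38.8%). Repeat peaks, with at least 50% of soft-masked bases, numbered 82 (9.27%) among non-promoter and 11 among promoter peaks. Most peaks held no exact copies, since in 813 peaks (91.9%) every 75-base word occurs once in GRCm38 and in 4 peaks under 50% of words do. This counts peaks and exact copies, not reads. A library had 5.73% to 74.7% of its non-promoter reads in 10 peaks alike in sequence to the chromosome 2 window, described below. Of these 10, 2 had only words that occur once.

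**Figure D1:**
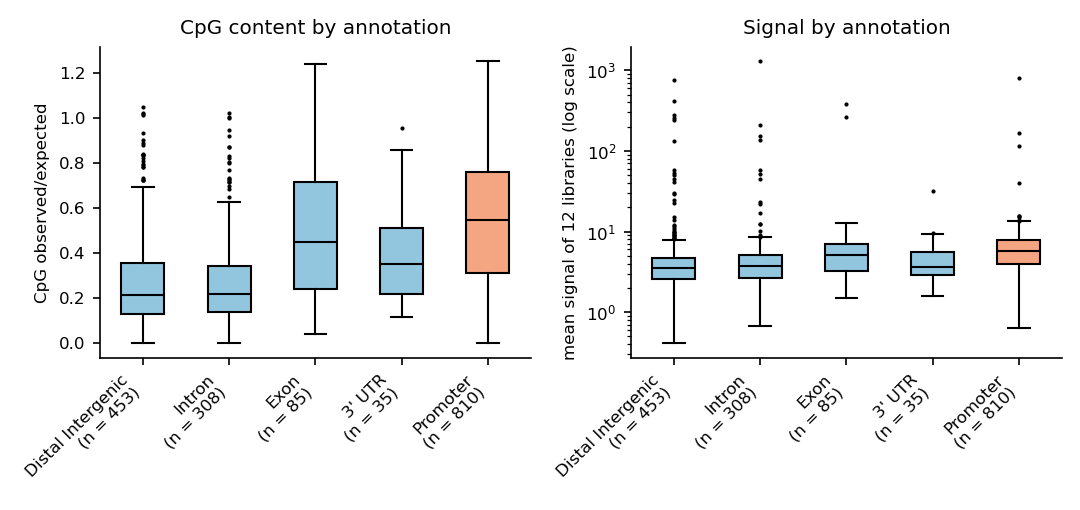
CpG observed/expected ratio (left) and mean signal over 12 libraries on a log scale (right) of H3K27me3 peaks in NeuN- nuclei by deposited annotation, with non-promoter classes in blue and promoter peaks in orange. Lines are medians, boxes quartiles, whiskers reach 1.5 times the box height and dots lie beyond; intergenic and intronic peaks had median ratios of 0.214 and 0.218 against 0.546 for promoters, and a few non-promoter peaks exceeded a signal of 100.

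Libraries of the same genotype differed widely, and these values stand before the results they touch. Signal is the deposited value, reads in a peak of fixed width times a scaling factor of the library, and whole reads were recovered from it. A library had 19132 to 78250 reads in peaks, of which 20.6% (DKO 1) to 80.3% (Ogg1-/- 2) fell in the 3 peaks of the chromosome 2 window. Outside that window 7654 to 23715 reads remained. The 4 libraries with the smallest window share, DKO 1, Mutyh-/- 1, Ogg1-/- 1 and Ogg1-/- 3, at or below 47.9%, also had the 4 highest median signals over non-promoter peaks, 5.20 to 5.96 against at most 3.41 in the other 8. They left 8.81% to 13.9% of the non-promoter peaks without a read, against 24.1% to 43.2% in the others. None of these 4 libraries was WT. The median non-promoter peak held 1 to 6 reads per library, 49 of 885 peaks had a read in all 12 libraries, and only 27 peaks reached a mean signal of 20.

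**Figure D2:**
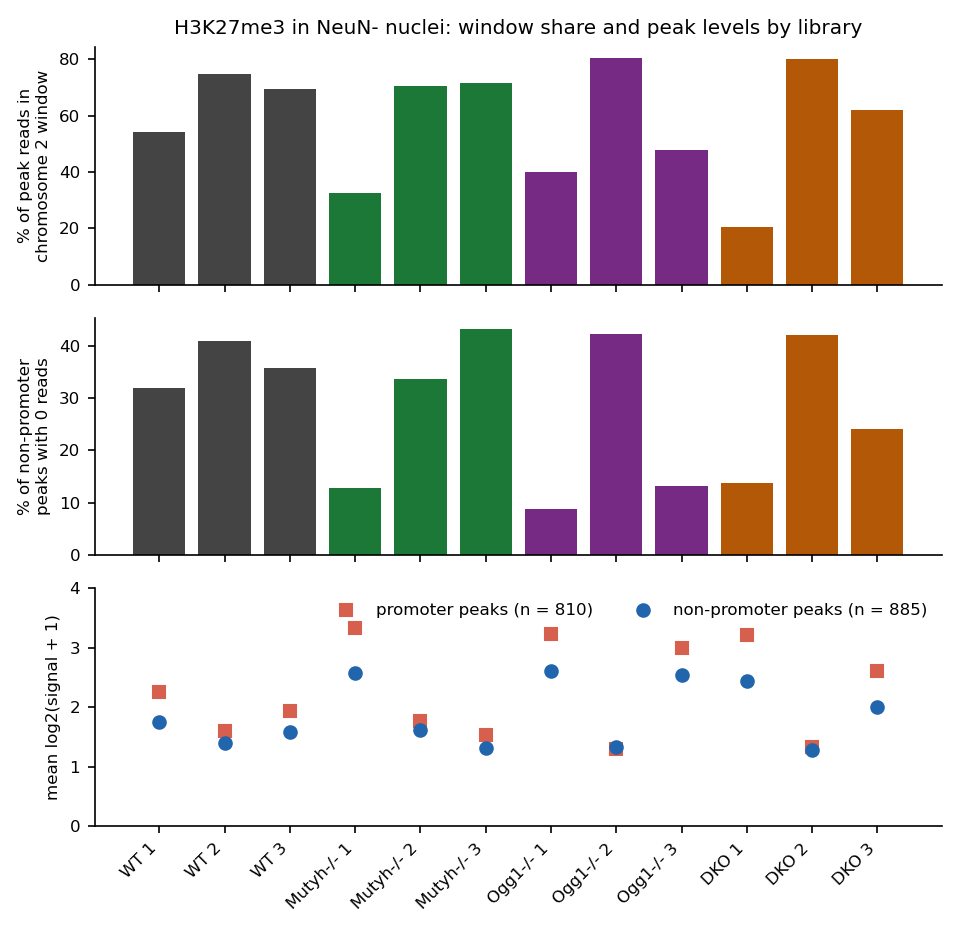
By library and coloured by genotype, the percent of peak reads in the chromosome 2 window (top), the percent of the 885 non-promoter peaks with 0 reads (middle) and the mean log2(signal + 1) of promoter and non-promoter peaks (bottom). DKO 1, Mutyh-/- 1, Ogg1-/- 1 and Ogg1-/- 3 combine a window share of 47.9% or less with the highest peak levels, and promoter peaks lie above non-promoter peaks in 11 of 12 libraries.

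The strongest non-promoter peaks formed 2 kinds with opposite patterns over the libraries. The 27 peaks with a mean signal of at least 20 took 38.6% to 83.1% of the reads of the 885 peaks, and 20 of them overlapped a peak in each of the other 5 tables, that is for H3K4me3, Suz12 and H3K27me3 alike. By sequence, 10 of the 885 peaks aligned to the chromosome 2 window over at least 60 bases at 80% identity or more. These 10 peaks carry the annotation of Rab10os, 2210408I21Rik, Gm5458, Cdk5rap2, Chl1, 4933422A05Rik, Pak3 and, in 3 peaks, Mir101c. Each of the 10 had a lower mean in the 4 libraries with a small window share than in the other 8, with ratios from 0 to 0.467. Of the 19 other peaks among the 27, 17 were higher in those 4 libraries, and Cldn34d and Fbxw4 were not. The ratios of the 19 ran from 0.508 to 5.49. Those alike to the window were thus high where the window was high, and this is a description of the libraries, not a test.

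The highest mean signal among the non-promoter peaks belonged to an intronic peak of 4933422A05Rik (chr9:35305256-35305656), 95.0% repeat sequence and 91.5% identical to the window over 305 bases. Its signal was 847, 1893 and 1315 in WT, 605, 1400.3 and 1075 in Mutyh-/-, 721, 2589.6 and 749 in Ogg1-/-, and 303, 2924 and 1181 in DKO. Ogg1-/- 2 and DKO 2, the libraries with the largest window share, were highest and DKO 1 was lowest. The peak 35.3 kb from Pak3, a kinase of the Rac and Cdc42 pathway, was also highest in DKO 2 and Ogg1-/- 2 (chrX:143482858-143483258), with 39.7, 566 and 444 in WT, 0, 496 and 549 in Mutyh-/-, 0, 1099 and 141 in Ogg1-/-, and 0, 1279 and 441 in DKO. It had 0 reads in replicate 1 of all 3 knockouts, and each knockout overlapped WT. The peak 68.1 kb from Axin2, which encodes a scaffold that lowers beta-catenin in Wnt signalling, went the other way (chr11:109011763-109012163). Its signal was 239.6, 37.3 and 96.9 in WT, 623, 133 and 120.2 in Mutyh-/-, 578, 94.8 and 466 in Ogg1-/-, and 558, 107 and 293 in DKO. Mutyh-/- 1, Ogg1-/- 1, DKO 1 and Ogg1-/- 3 were highest. The peaks assigned to Pex2 (a peroxisomal membrane protein, 284 kb away), Cdk8 (a kinase of the Mediator complex) and Filip1l had those same 4 libraries on top. Gm8579, a predicted gene, was 96.5% identical over 375 bases to the 45S ribosomal RNA locus on chromosome 17, whose promoter peak Rn45s had a mean signal of 811. Ly6c2, with 3 CG in the stretch shown, ranged from 91.1 in WT 3 to 430.4 in Mutyh-/- 1. Among the peaks of mean signal below 20, 757 of 858 (88.2%) were also higher in the 4 libraries, at a median ratio of 2.21.

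**Figure D3:**
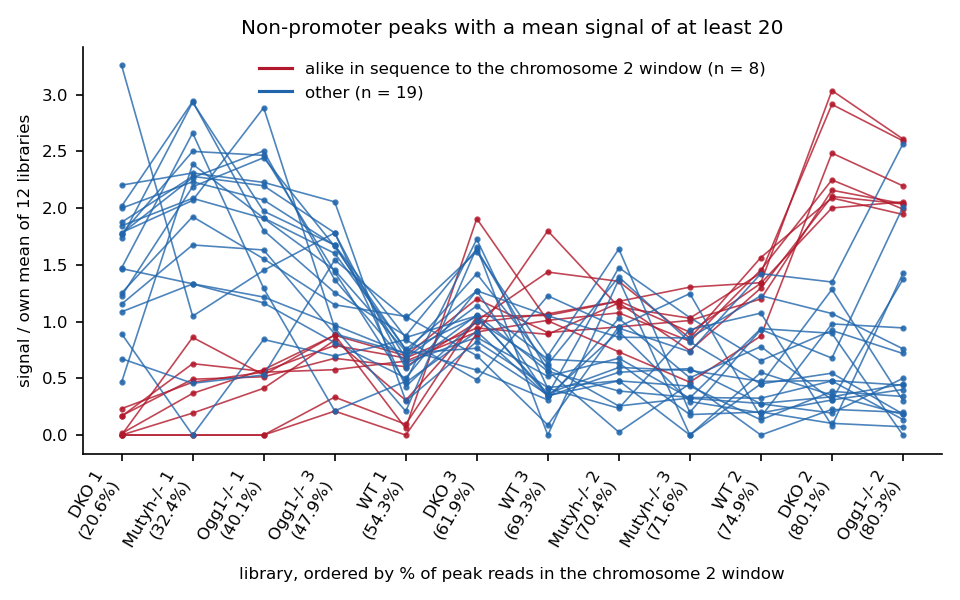
Signal of each of the 27 strongest non-promoter peaks divided by its own mean over 12 libraries, with libraries ordered by the percent of peak reads in the chromosome 2 window (in brackets). The 8 peaks alike in sequence to the window (red) had a lower mean in the 4 libraries at the left than in the other 8, and 17 of the 19 others (blue) had a higher one.

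The remaining peaks were weak, and more than 50% of all non-promoter peaks had a neighbour. Joined wherever neighbours were under 50 kb apart, the 885 peaks gave 424 single peaks and 151 runs of 2 or more, which held 461 peaks (52.1%). Runs of 5 or more numbered 17, spanned 87.3 to 435.2 kb and held 145 peaks, none of them alike to the window and none above a mean signal of 10.9. Inside 14 of the 17 spans H3K27me3 peaks were also called in NeuN+ nuclei, and inside 4 there was a promoter peak of the same NeuN- table. The run with most peaks, at chr4:154373840-154809039, had 20 peaks over 435.2 kb from Prdm16, a zinc finger regulator of cell fate, to Actrt2 and Ttc34. It held 13 intronic and 7 intergenic peaks with 3 promoter peaks among them, and 15 NeuN+ peaks fell in its span. Summed over the 20 peaks, its signal was 54.3, 54.7 and 51.9 in WT, 98, 48.6 and 28.9 in Mutyh-/-, 140.3, 44.9 and 105 in Ogg1-/-, and 93.6, 45.3 and 88.6 in DKO. WT libraries lay close together, whereas Ogg1-/- 1 and Ogg1-/- 3 were the highest and Mutyh-/- 3 the lowest. WT averaged 53.6 ± 1.52 (SD, n = 3), while Ogg1-/- averaged 96.7 ± 48.2 (SD, n = 3) and overlapped it (exact two-sided permutation p 0.4, with 0.1 the smallest that 3 against 3 libraries allow).

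The next run, of 13 peaks over 247 kb, at chr4:148704464-148951946 lay around Casz1, a zinc finger factor of heart and retina development. Its summed signal was 55.6, 60.5 and 32.3 in WT, 76.9, 46.5 and 50.9 in Mutyh-/-, 75.4, 34.3 and 65.6 in Ogg1-/-, and 83.2, 22.2 and 68.1 in DKO. No genotype stood apart from WT (exact permutation p 0.6, 0.5 and 0.7 for Mutyh-/-, Ogg1-/- and DKO). The third, of 10 intronic peaks over 212 kb, ran from Irf8, a transcription factor of myeloid cells and microglia, to Fendrr, a long noncoding RNA next to Foxf1 (chr8:120807297-121019519). Its sums were 43.7, 29.9 and 19.6 in WT, 55.7, 15.8 and 12.7 in Mutyh-/-, 71.9, 7.35 and 53.7 in Ogg1-/-, and 72.8, 20.3 and 27.3 in DKO. Again the ranges overlapped (exact permutation p 0.8, 0.6 and 0.8). With 9 and 10 NeuN+ peaks in the spans of Irf8 to Fendrr and Casz1, peaks were called at these loci in both fractions.

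Rbfox3, the gene of NeuN itself, carried 11 non-promoter peaks over 441 kb (chr11:118501096-118942369), 10 of them intronic, and 2 promoter peaks. In NeuN+ nuclei it had 0 H3K27me3 peaks and 2 H3K4me3 peaks, whereas NeuN- nuclei had 0 H3K4me3 peaks on it. The mean signal of the 11 peaks was 1.78 to 5.99, with 16 to 86 reads per library in all. Summed, they gave 21.2, 33.2 and 30 in WT, 56.7, 24.3 and 34.7 in Mutyh-/-, 59.6, 29.4 and 77.5 in Ogg1-/-, and 74.6, 17.6 and 37.5 in DKO. Every library had signal there, and Ogg1-/- 3 and DKO 1 were highest. Over all 11 peaks each knockout overlapped WT, with 28.1 ± 6.21 in WT and 55.5 ± 24.3 in Ogg1-/- (SD, n = 3, exact permutation p 0.3). Over the 8 neighbouring intronic peaks that form a run, the sums were 13.2, 24 and 21.9 in WT, 41.3, 21.1 and 27.7 in Mutyh-/-, 36.8, 26.1 and 63.2 in Ogg1-/-, and 52, 8.32 and 27.3 in DKO. There the 3 Ogg1-/- libraries lay above the 3 WT libraries (exact two-sided permutation p 0.1, the smallest possible), while Mutyh-/- and DKO overlapped WT. All 17 runs of 5 or more were compared in this way with each of 3 knockouts, without adjustment. In Ogg1-/- 8 of 8 peaks had a higher mean on the log2 scale. Over all 1698 peaks the Ogg1-/- log2 difference had a median of 0.58 and a lower quartile of -0.04. The 8 peaks are neighbours in the same libraries, not replicates. Ogg1-/- 1 and Ogg1-/- 3 are among the libraries of smallest window share, where most peaks were higher. Of the 17 runs of 5 or more, the 3 without any NeuN+ peak were these 8 Rbfox3 peaks, 9 peaks at Prok2 and Rybp, and 8 at Zc3h12a and Grik3, a kainate receptor subunit (the last pair were named after their values were seen). The NeuN+ table holds 4132 peaks against 1698, and that a peak was not called there does not give the level of the mark.

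**Figure D4:**
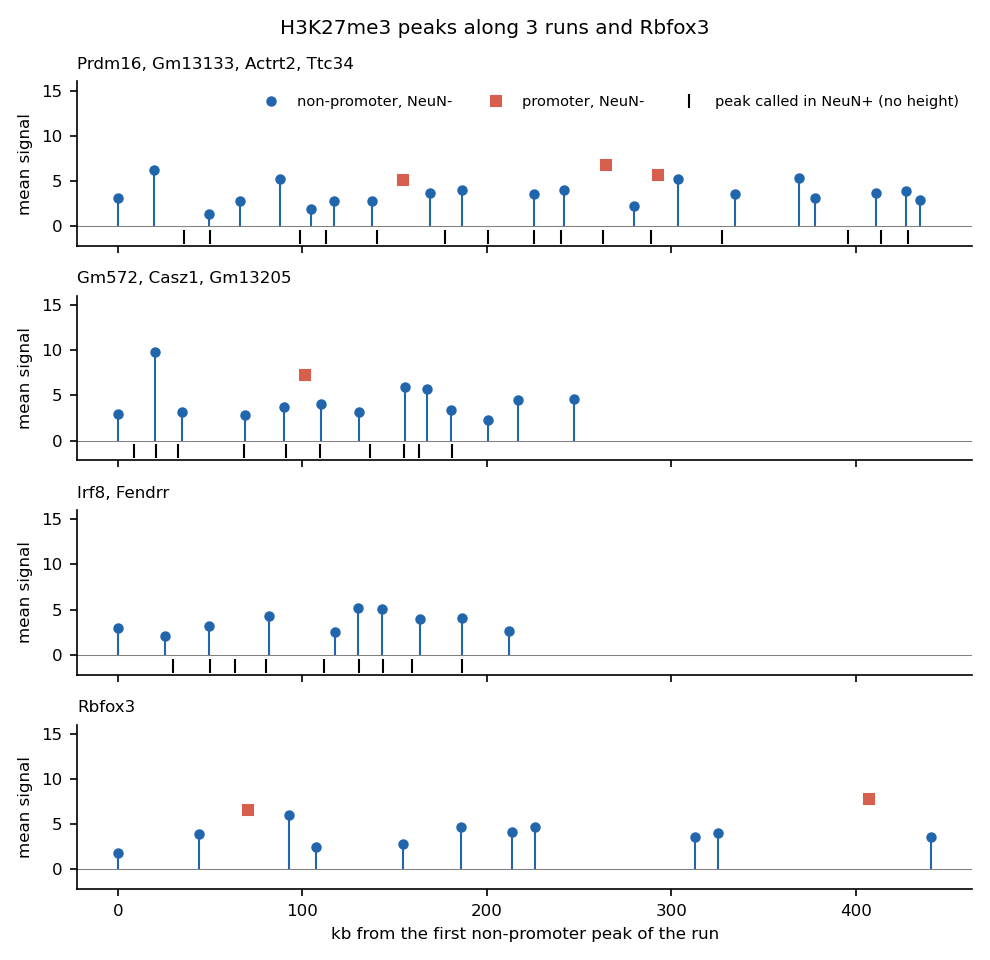
Mean signal over 12 libraries of non-promoter (blue) and promoter (orange) H3K27me3 peaks of NeuN- nuclei along the 3 runs with most peaks and Rbfox3, by distance in kb from the first non-promoter peak, with ticks for peaks called in NeuN+ nuclei. The runs at Prdm16, Casz1 and Irf8 to Fendrr hold 15, 10 and 9 NeuN+ peaks, and the Rbfox3 span holds 0.

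Developmental transcription factors made up the largest of 6 gene lists. They took 170 peaks (19.2%) at 95 genes, most at Prdm16 with 10, Tbx5 with 6 and Tfap2c with 5. Casz1, with 11 peaks, is not matched by the list. The list also took 135 of 810 promoter peaks (16.7%). Of the 170, 86 were intergenic and 66 intronic, and their median mean signal was 3.76. The strongest of them were annotated to Six2, 112 kb away, a homeobox factor of nephron progenitors, Uncx, a homeobox factor of the somites, and Foxq1, a forkhead factor, 3.12 and 3.58 kb away. At Six2 the signal was 17.2, 11.6 and 0 in WT, 20.2, 13.7 and 9.25 in Mutyh-/-, 17.5, 8.99 and 13.1 in Ogg1-/-, and 16.5, 5.55 and 13.6 in DKO. WT 3 had 0 reads there and every other library had signal. At Uncx, whose peak is exonic with a CpG ratio of 0.849, it was 6.62, 3.32 and 17.3 in WT, 23.1, 11.6 and 5.78 in Mutyh-/-, 18.4, 0 and 17.9 in Ogg1-/-, and 19.1, 0 and 7.95 in DKO. At Foxq1 it was 3.97, 6.63 and 3.46 in WT, 20.2, 8.45 and 3.47 in Mutyh-/-, 22.8, 13.1 and 8.35 in Ogg1-/-, and 13, 3.7 and 12.5 in DKO, with Ogg1-/- 1 and Mutyh-/- 1 highest. Predicted genes, Riken clones and microRNAs took 169 peaks (19.1%) but only 40 promoter peaks (4.94%).

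Neuronal channels, receptors and synaptic genes took 41 peaks (4.63%), 11 of them in Rbfox3, against 76 promoter peaks (9.38%). The strongest was at Shank1, a scaffold of the postsynaptic density, with 5.29, 0 and 4.61 in WT, 29.8, 7.39 and 6.94 in Mutyh-/-, 18.4, 2.45 and 8.35 in Ogg1-/-, and 23.4, 1.85 and 15.9 in DKO. Slc6a12, a betaine and GABA transporter, and Tac4, a tachykinin precursor, followed at mean signals of 9.58 and 7.36. Their peaks lay 54.3 and 37.8 kb from the start sites of these genes. Ligands and pathway members of Wnt, BMP, FGF, Hedgehog and Notch signalling took 15 peaks (1.69%) against 35 at promoters (4.32%). Apart from Axin2, the strongest were at the BMP-family ligands Gdf7 and Gdf6, at 10.3 and 8.03. Axon guidance and adhesion genes took 20 peaks (2.26%), 6 of them at Cdh23, the cadherin of hair cell tip links. After Chl1, a neural adhesion molecule whose peak is alike to the window, came Nrg2, a neuregulin, and Robo3, a receptor of midline crossing, at 8.66 and 5.81. The list of olfactory, vomeronasal and trace amine receptors, matched on Olfr, Vmn and Taar symbols, took 7 peaks, all at vomeronasal genes and 4 of them repeat peaks, and no promoter peak. A further 4 peaks at the olfactory receptor genes Or6b3 and Or1f19 carry symbols that the list does not match. The strongest of the 7 vomeronasal peaks, at Vmn1r238, Vmn1r2 and Vmn1r77, had mean signals of 52.7, 15 and 11.1. The remaining 463 peaks (52.3%) were in no list.

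Direct overlap with other tables was limited. Of the 885 peaks, 102 (11.5%) shared at least 1 bp with an H3K27me3 peak of NeuN+ nuclei, which is 2.47% of the NeuN+ peaks, against 145 of the 810 promoter peaks (17.9%). Within 10 kb, however, 448 non-promoter peaks (50.6%) and 439 promoter peaks (54.2%) had a NeuN+ peak. Suz12 peaks of NeuN- nuclei overlapped 58 non-promoter peaks (6.55%) and 12 promoter peaks (1.48%). Seen from Suz12, 60 of its 312 peaks met a non-promoter H3K27me3 peak. These 58 peaks had a median signal of 14.4 against 3.57 in the rest, 20 of them were repeat peaks, and 50 also overlapped an H3K4me3 peak of NeuN- nuclei. The strongest peaks overlapping Suz12 were 4933422A05Rik, Rab10os, Pak3 and Gm5458, all alike to the chromosome 2 window, and the strongest overlapping the NeuN+ mark were the same 4. Peaks called in all 6 tables numbered 30, and 745 of the 885 overlapped none of the other 5.

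The fraction was checked against markers by promoter peaks. Of 12 neuronal markers, 0 had an H3K4me3 promoter peak in NeuN- nuclei and 11 had one in NeuN+ nuclei, while of 27 non-neuronal markers 3 (Slc1a2, Olig1 and Oaf) and 5 did. Most glial markers, Gfap, Mbp and Cx3cr1 among them, thus had no H3K4me3 promoter peak in the NeuN- table, like the neuronal markers. Mbp had one in NeuN+ nuclei. H3K4me3 peaks of any annotation numbered 3270 in NeuN- and 12628 in NeuN+ nuclei. H3K27me3 promoter peaks of NeuN- nuclei were found at 4 neuronal markers (Rbfox3, Gad1, Gad2 and Nefl) and 3 non-neuronal markers (Pdgfra, Cldn5 and Flt1). Those of NeuN+ nuclei were found at 2 neuronal markers (Gad1 and Gad2) and 9 non-neuronal markers (Mag, Sox10 and Olig2 among them). Among the non-promoter H3K27me3 peaks, 4 of the 12 neuronal markers had a peak (Rbfox3, Slc17a7, Nefl and Neurod2) and 0 of the 27 non-neuronal markers.

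Promoter peaks carried more H3K27me3 than non-promoter peaks in the same libraries. Averaged over 12 libraries, the mean log2(signal + 1) was 2.26 ± 0.79 (SD) at promoters and 1.87 ± 0.54 at non-promoter peaks. The difference was 0.39 ± 0.28 and positive in 11 of 12 libraries, all but Ogg1-/- 2 (exact two-sided sign-flip test, p 0.000977). Among peaks with a mean signal of at least 5 it was -0.22 (exact p 0.0142), positive in 3 of 12 libraries. Repeat peaks against the other non-promoter peaks did not pass this test, with 2.07 ± 0.22 against 1.85 ± 0.58 and a higher level in 7 of 12 libraries (exact p 0.147). The test passed at a pseudocount of 5 (difference 0.24, exact p 0.0132), at a mean signal of at least 5 (1.57, exact p 0.00195) and without DKO 1 (0.29, exact p 0.0498), and the median over peaks gave -0.11. In both comparisons the limit of 5 selects peaks by the signal that is compared, so it cannot show which class is higher. Of the 82 repeat peaks 7 are alike to the window, and median mean signals were 3.16 for repeat and 3.69 for other non-promoter peaks.

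No difference between knockout and WT was detected in the share of reads at non-promoter peaks. Outside the chromosome 2 window this share was 63.0 ± 9.18% in WT, 61.1 ± 11.6% in Mutyh-/-, 60.6 ± 17.7% in Ogg1-/- and 61.3 ± 19.2% in DKO (SD, n = 3). By library it was 53.1%, 71.1% and 65% in WT, and 45.1% to 82.4% over all 12 libraries, so each knockout overlapped WT. Exact two-sided permutation p was 0.7, 0.8 and 1 for Mutyh-/-, Ogg1-/- and DKO, 1 after adjustment over the 3 tests. With the window-like peaks and Gm8579 and Rn45s left out, the range over libraries narrowed to 47.2% to 57.6%.

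Single peaks were compared in a limma fit on log2(signal + 1) over all 1698 peaks, and a peak was called a differentially enriched region (DER) where the log2 difference exceeded 0.5 in size with p below 0.05 before adjustment. Among the non-promoter peaks, Mutyh-/- had 23 DERs, 19 higher and 4 lower than WT, which is 2.6% against 2% of all peaks. Ogg1-/- had 41, 36 higher and 5 lower, or 4.63% against 4.18% of all peaks. DKO had 24, 20 higher and 4 lower, or 2.71% against 2.3% of all peaks. For DERs that were higher the backgrounds were 1.71%, 3.77% and 1.94% of all peaks, beside 2.15%, 4.07% and 2.26% here. The non-additive contrast of DKO, which is DKO minus both single knockouts plus WT, had 29, or 3.28% against 2.47%. At an adjusted p under 0.05 the limma fit called 0 peaks in each contrast (0% of all peaks), with 23, 41, 24 and 29 non-promoter peaks at an unadjusted p under 0.05. Single libraries moved these counts by over 1.5 times: Mutyh-/- had 40 without Mutyh-/- 3, or 4.52% against 3.89% of all peaks. Ogg1-/- had 27, 95 and 22 without Ogg1-/- 1, 2 and 3 and 26 without WT 2. These were 3.05%, 10.7%, 2.49% and 2.94%, against 2.24%, 10.3%, 2.24% and 2.41% of all peaks. DKO had 15, 50 and 15 without DKO 1, DKO 2 and WT 3, or 1.69%, 5.65% and 1.69% against 1.3%, 5.59% and 2% of all peaks. The non-additive contrast had 59, 17 and 19 without Ogg1-/- 2, Ogg1-/- 3 and WT 2, or 6.67%, 1.92% and 2.15% against 5.42%, 1.41% and 1.59%. With a mean signal of at least 5 required, 5, 7, 6 and 0 DERs remained in number. These were 2.14%, 2.99%, 2.56% and 0%, against 1.1%, 2.2%, 1.52% and 0.138% of all peaks of that strength. edgeR and DESeq2 on the recovered reads also called 0, except for 1 non-promoter peak in DKO by edgeR with TMM factors and by DESeq2. Peaks whose 3 knockout libraries all lay on one side of the 3 WT libraries numbered 61 (6.89%) in Mutyh-/-, 88 (9.94%) in Ogg1-/- and 66 (7.46%) in DKO, against 6.6%, 9.78% and 6.77% of all peaks.

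DERs were mostly higher than WT, and so was the median of all peaks. The median log2 difference of the 885 peaks was 0.28, 0.60 and 0.36 in Mutyh-/-, Ogg1-/- and DKO, and 0.29, 0.58 and 0.41 over all peaks. DESeq2 size factors brought the 3 medians to 0.02, 0.10 and 0.00, and limma with TMM factors to 0.13, 0.31 and 0.17. With DESeq2 the DERs were 40 higher and 25 lower in Mutyh-/-, 23 and 16 in Ogg1-/-, and 26 and 17 in DKO. Without the 4 libraries of smallest window share, of which none was WT, the limma medians were -0.10, -0.37 and 0.03, with 17 of 30, 15 of 25 and 18 of 25 DERs higher. Leaving out Mutyh-/- 1 alone gave a median of -0.10 and 11 higher of 25 DERs in Mutyh-/-. Without those 4, Ogg1-/- had 1 library, which was assumed to vary like the other groups. The part of the window share in the shift was not tested beyond this.

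**Figure D5:**
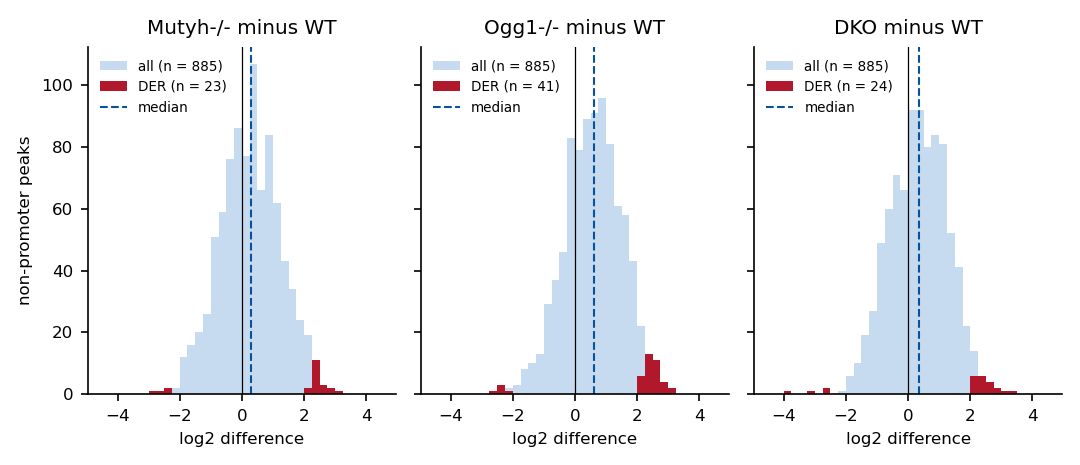
Numbers of non-promoter H3K27me3 peaks by log2 difference from WT in bins of 0.25 for Mutyh-/-, Ogg1-/- and DKO, with all 885 peaks in light blue, DERs in red and the median dashed. The medians lie at 0.28, 0.60 and 0.36, to the right of 0, and 19 of 23, 36 of 41 and 20 of 24 DERs lie on the higher side.

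The 3 knockouts had 75 DERs between them, of which 62 were called in 1 knockout, 13 in 2 and 0 in all 3. The 3 contrasts share the WT libraries. Most DERs were weak, with a median mean signal of 3.52 over the 75 and 58 under 5, and 8 were repeat peaks. Developmental transcription factors had 2 higher and 0 lower in Mutyh-/- (Hoxb1 and Lmx1b), 5 and 1 in Ogg1-/- (Hlx, Foxa1, Nr5a1, Prdm16 and Uncx among them), and 2 and 1 in DKO (Twist2, Msx2 and Nkx1-1), and Casz1, outside the list, had 1 lower in Ogg1-/-. This is 2, 6 and 3 of 170 peaks, with median log2 differences of 0.28, 0.48 and 0.28, beside 0.29, 0.58 and 0.41 over all peaks. Neuronal genes (41 peaks) had 1 higher (Rbfox3) and 1 lower (Ryr1) in Mutyh-/-, 2 higher and 1 lower in Ogg1-/- (Cacna1i, Ryr1 and Shank2) and 0 in DKO, with medians of 0.36, 0.54 and 0.41. These lists stand beside 1.71%, 3.77% and 1.94% of all peaks that were higher. Axon guidance and adhesion genes had 0, 1 and 3 of 20 higher and 0 lower, the 1 in Ogg1-/- at Cdh23 and the 3 in DKO at Cdh23, again at Cdh23, and at Cdh22, with medians of 0.18, 0.68 and 0.65. Signalling genes (15 peaks) and the 7 vomeronasal peaks had 0 in each knockout, and predicted genes, Riken clones and microRNAs (169 peaks) had 7 higher and 2 lower, 5 and 0, and 6 and 2, with medians of 0.30, 0.62 and 0.32. The signalling genes had medians of 0.24, 0.69 and -0.08 and the vomeronasal peaks -0.60, 0.05 and 0.01. In 3′ UTRs, 6 of 35 peaks were DERs in Ogg1-/-, 5 of them higher (Or6b3, Abi3, Foxa1, Prkab1 and Lars2, singled out after their values were seen) and 1 lower (Slc30a4), beside the 4.18% of all peaks. The median log2 difference of the 35 was 1.07 in Ogg1-/-. Mutyh-/- had 1 DER among the 35 (2.86% against 2% of all peaks) and DKO 3 (8.57% against 2.3%), with medians of 0.50 and 0.79. In the 17 runs of 5 or more, 1, 4 and 1 of 145 peaks were DERs, or 0.69%, 2.76% and 0.69% against 2%, 4.18% and 2.3% of all peaks.

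In Mutyh-/-, the DER of smallest p lay in an exon of a neighbouring gene, 31.0 kb from Egr3, an activity-induced transcription factor (chr14:70045794-70046194). Its signal was 9.61, 8.45 and 4.62 in Mutyh-/- replicates 1 to 3 and 0, 0 and 0 in WT replicates 1 to 3, so the groups did not overlap (log2 difference 3.05 ± 1.05 (SE), unadjusted p 0.00386 and Benjamini-Hochberg adjusted p 0.998, limma). A count of 0 allows up to 3 reads, or 2.49 to 3.97 in signal for the WT libraries, which makes the peak at least 2.29-fold higher in Mutyh-/- when 3 reads are set for each WT library. These limits, here and for the folds given below, cover only the counting error of the group with 0 reads. The mean of the other group is taken as measured, and the peaks were picked for a small p. In WT replicates 1 to 3, 31.9%, 40.9% and 35.8% of the non-promoter peaks had 0 reads. The folds are therefore not an established minimum of the change. The intergenic peak 129 kb from 4930435F18Rik (chr13:116708639-116709039) had 7.69, 5.28 and 6.94 in Mutyh-/- replicates 1 to 3 and 0, 0 and 0 in WT replicates 1 to 3, at least 2.01-fold higher. DKO also lay above WT there, with 9.54, 4.62 and 5.68. At the intergenic peak 45.8 kb from 1700026F02Rik (chr8:71131523-71131923) the values were 13.5, 20.1 and 12.7 in Mutyh-/- replicates 1 to 3 and 2.65, 0 and 2.31 in WT replicates 1 to 3, a log2 difference of 2.81. This peak also overlapped Suz12 and H3K4me3 peaks of NeuN- nuclei and an H3K27me3 peak of NeuN+ nuclei. Gm20052 (chr5:37900922-37901322) was lower, with 1.92, 0 and 0 in Mutyh-/- replicates 1 to 3 and 17.2, 7.46 and 5.77 in WT replicates 1 to 3 (log2 difference -2.83). All 4 had an adjusted p of 0.998 in limma with Benjamini-Hochberg adjustment.

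In Ogg1-/-, the DER of smallest p lay in an intron and carries the name of Calcoco1, a coactivator and autophagy receptor gene 84.3 kb away (chr15:102806436-102806836). Its signal was 7.89, 8.99 and 4.77 in Ogg1-/- replicates 1 to 3 and 0, 0 and 0 in WT replicates 1 to 3, at least 2.18-fold higher (log2 difference 3.0 ± 1.01 (SE), unadjusted p 0.00302 and Benjamini-Hochberg adjusted p 0.963, limma). The intergenic peak of Zfp982 (chr4:147437046-147437446), 92% repeat sequence with 0 CG dinucleotides, had 7.01, 23.7 and 9.54 in Ogg1-/- replicates 1 to 3 and 2.65, 0 and 0 in WT replicates 1 to 3. At the intergenic peak 78.2 kb from Tbca, a tubulin folding cofactor (chr13:94710276-94710676), the values were 7.01, 4.9 and 9.54 in Ogg1-/- replicates 1 to 3 and 0, 0 and 0 in WT replicates 1 to 3, at least 2.16-fold higher. At Sfi1, a centrosomal protein gene (chr11:3179758-3180158), they were 10.5, 24.5 and 14.3 in Ogg1-/- replicates 1 to 3 and 0, 3.32 and 1.15 in WT replicates 1 to 3. Log2 differences were 3.05, 2.99 and 2.97 at Zfp982, Tbca and Sfi1, with an adjusted p of 0.963 in limma. The peaks of Zfp982 and Sfi1 each also overlapped Suz12 and H3K4me3 peaks of NeuN- nuclei and an H3K27me3 peak of NeuN+ nuclei. Those of Calcoco1 and Tbca did not.

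In DKO, the DER of smallest p was the intergenic tandem repeat peak 4.09 kb from Tmem125, a transmembrane protein gene (chr4:118548132-118548532). Its signal was 18.5, 6.63 and 16.1 in WT, 3.84, 2.11 and 2.31 in Mutyh-/-, 28.9, 8.99 and 21.5 in Ogg1-/-, and 0, 0 and 0 in DKO. All 3 DKO libraries had 0 reads against 8 to 14 in WT, at least 4.7-fold lower when 3 reads are set for each DKO library. Mutyh-/- was low as well, whereas Ogg1-/- lay in or above the range of WT. The Mutyh locus is also on chromosome 4, and a part of DNA linked to the knockout allele was not tested. The limma fit gave a log2 difference of -3.77 ± 1.13 (SE) with an unadjusted p of 0.000887 and an adjusted p of 1. It is the 1 peak past an adjusted p of 0.05 in edgeR with TMM factors (adjusted p 0.00842) and in DESeq2 (adjusted p 0.00102), and its adjusted p over the 27 alternatives ran from 0.00102 to 1. In this peak 69.7% of 75-base words occur once in GRCm38, and it overlapped 2 Suz12 peaks and 1 H3K4me3 peak of NeuN- nuclei. Platr30, a long noncoding RNA (chr3:96336192-96336592), had 13.9, 6.47 and 9.08 in DKO replicates 1 to 3 and 0, 0 and 0 in WT replicates 1 to 3, at least 2.97-fold higher. At the intronic peak 168 kb from 4933438K21Rik (chr4:147236466-147236866) the signal was 0, 0 and 0 in DKO replicates 1 to 3 and 5.29, 11.6 and 8.07 in WT replicates 1 to 3, at least 2.84-fold lower. At the intergenic peak 61.8 kb from Gm14496 (chr2:181928889-181929289), 83% repeat sequence, it was 8.67, 13.9 and 14.8 in DKO replicates 1 to 3 and 0, 2.49 and 0 in WT replicates 1 to 3. This peak also overlapped a Suz12 peak of NeuN- nuclei and an H3K27me3 peak of NeuN+ nuclei. The last 3 had log2 differences of 3.38, -3.16 and 3.11 and an adjusted p of 1 in limma.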

How the data were processed

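ChIP-seq for H3K4me3, H3K27me3 and Suz12 was performed on NeuN+ and NeuN- nuclei. Per the study's methods, single-end reads of 75 bp were aligned to GRCm38/mm10 with Bowtie2 (2.3.5.1 in the submitters' processing notes), and H3K27me3 peaks were called with epic2 (the notes list SICER) at an FDR of 0.05, with windows of 200 bp and 3 gaps. Peaks found in at least 2 of 3 replicates were kept, reads were counted with DiffBind 3.10.1, and peaks were annotated with ChIPseeker 1.36. In the deposited annotation promoter peaks lie up to 2 kb from a start site. How duplicates and blacklisted regions were treated is not given in the sources used here, and input libraries were not used here.

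The deposited values are a signal, the reads per peak scaled by 1 factor per library. All values (100%, tolerance 0.1 read) came out as whole reads when divided by the signal of 1 read, 0.817 to 1.32. The main test was limma 3.58.1 (R 4.3.3) on log2(signal + 1) with genotype as the factor, fitted on 1698 peaks and 12 libraries, with Benjamini-Hochberg adjustment over all peaks. A log2 difference is on that scale and understates the change of weak peaks. As alternatives, edgeR 4.0.16 (quasi-likelihood) and DESeq2 1.42.0 were run on the recovered reads. There edgeR with the deposited factors gave 42, 44 and 32 DERs at non-promoter peaks in Mutyh-/-, Ogg1-/- and DKO. These were 4.75%, 4.97% and 3.62%, against 3.53%, 4.12% and 3.18% of all peaks. Pseudocounts, filters, repeat peaks, a replicate block and leaving out each library were the other alternatives. The fit was also run on simulated counts. These held no differences between libraries such as that of the window share, so that run does not show how the fit behaves under them. Each library is a pool of animals, so p-values rest on the spread between pools. For single peaks the limma fit took that spread wholly from the trend over peaks of like signal, not from the peak itself. At Pak3 the peak's own SD on the log2 scale was 4.73 against 1.29 in the fit, and at Tmem125 0.58 against 1.39. The p-values and SE of single peaks therefore do not measure the spread of that peak.

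CpG content, soft-masked bases, uniqueness of 75-base words and likeness (blastn 2.17.0) were computed from GRCm38. Named peaks are the 8 strongest non-repeat and 4 strongest repeat peaks, per knockout the 4 DERs of smallest p whose libraries did not overlap WT, up to 3 of the strongest per gene list, the 4 strongest overlapping Suz12 and the NeuN+ mark, and the 3 runs with most peaks. The members and the gene lists, which match symbols by pattern, were chosen with earlier results of these data known.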

Additional observations from a re-analysis of the deposited data

How the results depend on the processing

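Of the 12 named differential peaks, each kept its direction under every alternative run. They had been chosen because their libraries did not overlap WT in these same data, so this does not test their direction. Only Tmem125 passed an adjusted p of 0.05, with log2 differences of -7.07 by edgeR with TMM factors and -6.64 by DESeq2. DER counts moved by over 1.5 times with the tool. Mutyh-/- had 47 by limma with TMM factors, 42 and 51 by edgeR with the deposited and TMM factors and 65 by DESeq2. These were 5.31%, 4.75%, 5.76% and 7.34%, against 4.65%, 3.53%, 4.3% and 6.18% of all peaks. DKO had 41 and 43 by edgeR with TMM factors and DESeq2, or 4.63% and 4.86% against 3.89% and 4.06%. The non-additive contrast had 52 and 51, or 5.88% and 5.76% against 3.77% and 4.65%. With a mean signal of at least 5 the counts were 5, 7, 6 and 0, beside the shares of all peaks given above. Alternatives chosen after seeing the data gave 15 (Mutyh-/-) and 24 (Ogg1-/-) without any replicate 1 library, and 25 (Ogg1-/-) without the 4 libraries of smallest window share. The median log2 difference then reversed to -0.10 in Mutyh-/-, -0.37 in Ogg1-/- and 0.40 in the non-additive contrast. Leaving out single libraries gave 19 to 40, 22 to 95, 15 to 50 and 17 to 59 DERs in Mutyh-/-, Ogg1-/-, DKO and the non-additive contrast, and medians of -0.10 to 0.49, 0.37 to 1.03, 0.03 to 0.73 and -0.97 to -0.15. The causes were not tested.

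The difference in the share of reads at non-promoter peaks, which passed no test, reversed to 1.90, 2.07 and 2.23 percentage points in Mutyh-/-, Ogg1-/- and DKO with non-repeat peaks only and to 3.15, 3.41 and 3.88 with the chromosome 2 window kept, and ran from -6.99 to 4.70, -12.7 to 3.35 and -12.4 to 6.31 over single libraries left out. Promoter minus non-promoter level was -0.22 at a mean signal of at least 5 and 0.35 to 0.43 over libraries left out. Repeat minus non-repeat level was -0.11 by the median, 0.24 at a pseudocount of 5, 1.57 at a mean signal of at least 5 and 0.15 to 0.29 over libraries left out.

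Replicate numbers are shared between genotypes. Compared over peaks, same-numbered libraries of WT and a knockout deviated together only weakly (r of 0.001 to 0.153). This r cannot show a shift common to all peaks of a library. Replicate 1 had the smallest window share in each genotype, at 54.3% in WT, 32.4% in Mutyh-/-, 40.1% in Ogg1-/- and 20.6% in DKO. The main fit did not pair the samples, and whether the numbers pair them was not settled. With the replicate block the counts were 49, 66, 41 and 48, against 23, 41, 24 and 29 without it, with 0 at an adjusted p under 0.05. With the block these were 5.54%, 7.46%, 4.63% and 5.42%, against 4.89%, 8.01%, 4.42% and 4.42% of all peaks. Not every pair passed 0.1. Depth limits most peaks, with 1 to 6 reads at the median peak of a library.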

Other observations

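Other runs of 5 or more peaks lay beside developmental regulators and in tissue-specific gene clusters, and they are given as values, chosen after these were seen. The run from Tbx3 to Tbx5, T-box factors of limb and heart, had 9 peaks over 267 kb (chr5:119643941-119910603) and 6 NeuN+ peaks in its span, without a promoter peak. Its WT libraries summed to 31.8, 35.7 and 33.4 and its Ogg1-/- libraries to 40.3, 23.7 and 52.5, which overlapped (exact two-sided permutation p 0.7). The DKO libraries summed to 39, 10.2 and 20.4, with 1 of 9 peaks higher than in WT (exact permutation p 0.4), and the Mutyh-/- libraries to 60.5, 22.2 and 38.1 (exact permutation p 0.7). The run of Barhl1 and Cfap77 held 7 intronic peaks over 107 kb, that of Uncx and Micall2 6 peaks over 131 kb, and that of Hif1an and Pax2 6 peaks over 152 kb, with 5, 6 and 2 NeuN+ peaks. Skap1, an adaptor protein gene of T cell signalling, had 8 intronic peaks over 128 kb with WT sums of 21.2, 11.6 and 18.5.

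Clusters of genes that arose by duplication are given separately. The chitinase-like genes Chil3 and Chil4 with Chia1 had 9 peaks over 177 kb, 12 NeuN+ H3K27me3 peaks and 2 H3K4me3 peaks of NeuN- nuclei in the span. The run of Prl2c3 and Prl2c2, of the placental prolactin family, had 7 peaks over 103 kb at a median mean signal of 1.49, and with 5 Suz12 and 11 H3K4me3 peaks of NeuN- nuclei it was the 1 run of the 17 with a Suz12 peak of this fraction inside. Reads of near-identical copies may be placed at any of them, so values of both clusters are uncertain.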
